A study of Mus musculus with 12 samples.

Results

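Germinal centres (GC) are the sites in lymph nodes and spleen where B cells mutate their antibody genes and compete for help from T cells. Cells in the light zone (LZ) capture antigen and contact T follicular helper cells, and cells in the dark zone (DZ) divide and hypermutate. A minority of LZ cells that receive help switch on the transcription factor gene Myc, which drives cell growth, ribosome production and entry into the cell cycle, before they move to the DZ. The cells described here are 95 GC B cells that fell into an activated cluster, cluster 5 of the authors' clustering, while the authors' annotation of states called them LZ (64 cells) or DZ (31 cells). Most of that cluster (159 of 256 cells) carried the state LZtoDZ instead, and 2 cells of it were prePC. The 95 cells were taken by the deposited cluster number and state, with no further gate, from 6000 cells in all.

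Lymph nodes were taken from 3 mice given the hapten-carrier antigen NP-KLH in Sigma Adjuvant System. The mice had received tamoxifen by gavage, and cells were taken 5 days later, at day 16 of the primary response. Live IgDneg eYFP+ B cells and plasma cells were sorted, labelled by mouse with barcoded antibodies and profiled by droplet-based sequencing of transcript 5′ ends. Every group below comes from the same 3 animals and shares immunisation, tamoxifen and reporter, and no source used here gives the mouse strain or the driver of the reporter. The LZ and DZ cells of cluster 5 are set against the LZtoDZ cells of cluster 5 (159 cells) and against LZ cells (2149) and DZ cells (3009) of the other clusters. Mice 1, 2 and 3 contributed 26, 34 and 35 of the 95 cells.

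Values below are unique molecular identifier (UMI) counts summed over the cells of a group in a mouse. Unless stated, they are scaled to the total of that sum, adjusted by its normalization factor (TMM, edgeR), and given as CPM. The factors differ between sums, so a level of the 95 cells can lie outside those of their LZ and DZ cells. The 95 cells held 1329379 UMIs, 351409 to 511448 per mouse. All 95 carried barcodes of the larger of the 2 barcode series in the matrix, as did 156 of 159 LZtoDZ cells, and no barcode occurred in both series. None of the 95 cells held 2 or more UMIs of T cell, NK cell, myeloid, stromal or erythroid markers, against 3 LZtoDZ cells and, in other clusters, 14 LZ and 11 DZ cells. In the 95 cells the 3 NK cell, 5 myeloid and 1 stromal markers in the matrix were all at 0, 5 of 6 T cell markers were at 0, Trac had 2 UMIs and the erythroid Hbb-bs had 2 UMIs. Scaled to the total of each sum with no TMM factor, the summed T cell markers ranged from 0 to 2.14 CPM per mouse in the 95 cells. In LZtoDZ cells they ranged from 2.12 to 5.27 CPM.

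Myc and Srm (spermidine synthase, an enzyme of polyamine synthesis that is a known Myc target) marked the cells as a group, in keeping with the name of the cluster. Myc stood at 114, 94.7 and 98.6 CPM in mice 1, 2 and 3 in the LZ and DZ cells of cluster 5, against 217, 135 and 90.1 CPM in LZtoDZ cells and 38.5, 26.6 and 36.6 CPM in the mean of LZ and DZ cells of other clusters. Srm stood at 156, 151 and 171 CPM in the 95 cells, against 422, 350 and 412 CPM in LZtoDZ cells and 48.3, 47.7 and 45.3 CPM in other clusters. Srm was thus intermediate in every mouse, without overlap, while the Myc levels of the 95 cells and of LZtoDZ cells overlapped. At least 1 Myc UMI was seen in 45 of the 95 cells (47.4%), against 107 of 159 LZtoDZ cells (67.3%), 334 of 2149 other LZ cells (15.5%) and 342 of 3009 other DZ cells (11.4%). Depth differed between these groups, with a median of 13374 UMIs per cell in the 95 cells, against 19682 in LZtoDZ cells, 6177 in other LZ cells and 7796 in other DZ cells. With each cell thinned to 4000 UMIs the shares were 29.0% of 93 cells, against 34.0% of 159 LZtoDZ cells, 11.1% of 1906 other LZ cells and 5.81% of 2841 other DZ cells. By zone, the thinned share was 37.1% of 62 LZ cells and 12.9% of 31 DZ cells of cluster 5. Myc in these DZ cells, at 49.0, 52.7 and 46.6 CPM, overlapped other LZ cells, at 57.9, 38.7 and 53.2 CPM. It was above other DZ cells, at 19.2, 14.5 and 20.0 CPM. Cluster and state were set by the authors from expression in these same cells, so these levels are a description.

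**Figure D1:**
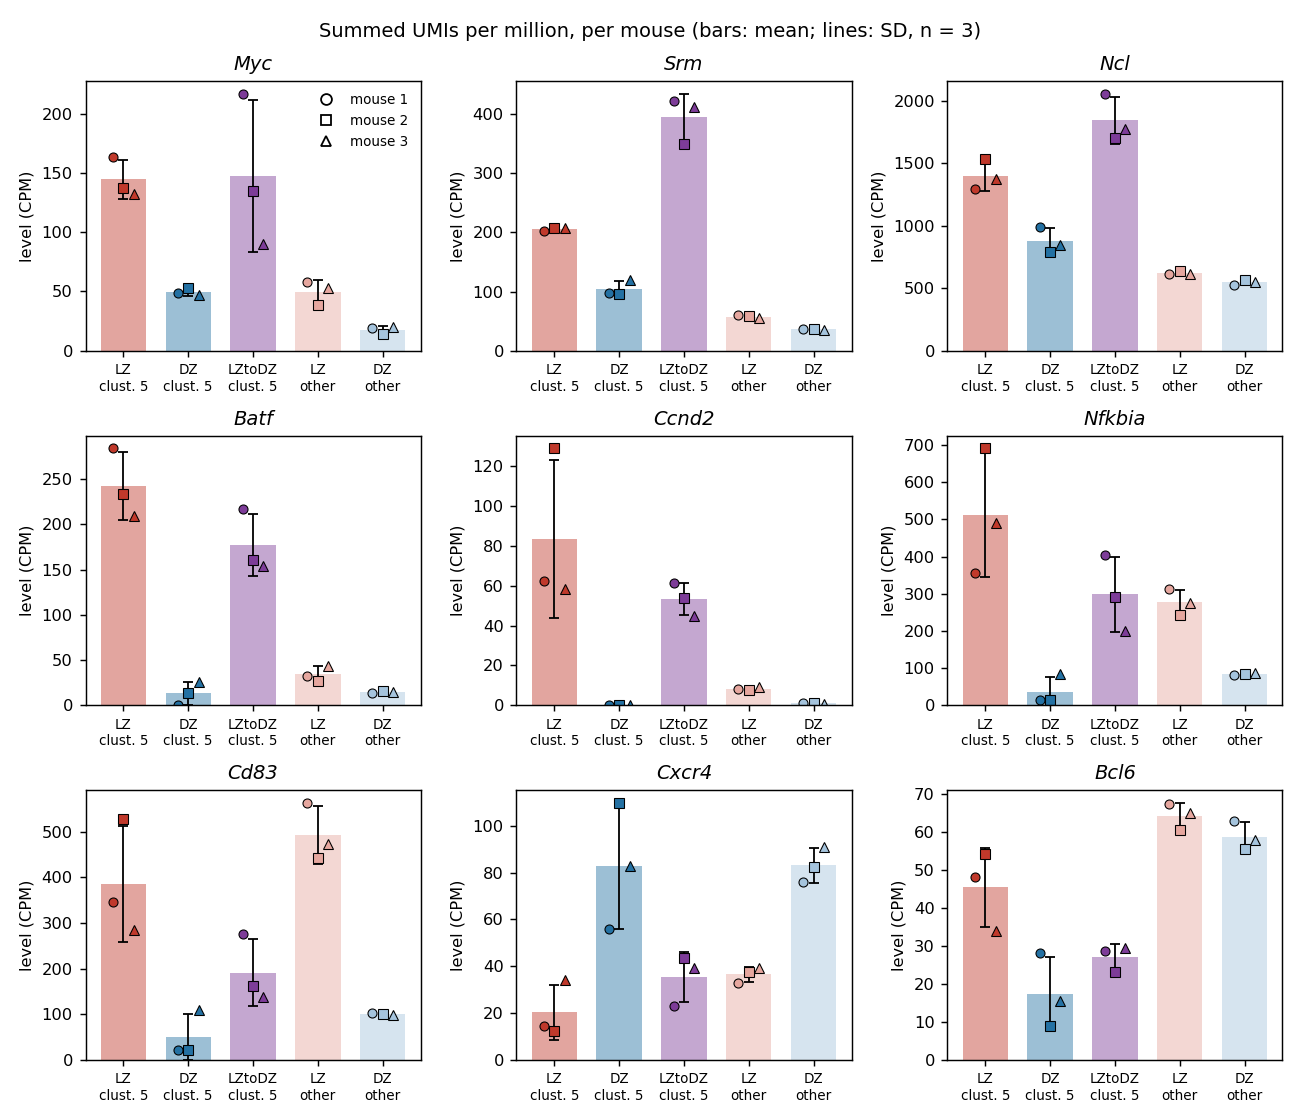
Levels in CPM (vertical axes, linear) of 9 genes in LZ and DZ cells of cluster 5, LZtoDZ cells of cluster 5 and LZ and DZ cells of other clusters; symbols are the 3 mice, bars the mean and lines the SD (n = 3). Srm and Ncl lie between LZtoDZ cells and the other clusters, and Batf and Ccnd2 are high in LZ cells of cluster 5. In its DZ cells Ccnd2 is at 0, and Batf has a mean of 13.0 CPM, against 15.0 CPM in DZ cells of other clusters. Bcl6 in the 3 groups of cluster 5 is below both other-cluster groups in all mice.

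The authors' activation score separated the states inside the cluster. LZtoDZ cells began at 0.581 on that score, and the 95 cells spanned 0.402 to 0.578 with a median of 0.544. Of the 95 cells, 27 lay within 0.02 below the boundary, and 27 LZtoDZ cells of the cluster lay within 0.02 above it. The state boundary thus fell within a run of closely spaced scores. Other clusters also reached high scores: 794 of their 5158 LZ and DZ cells lay at or above the lowest score of the 95 cells. Of these, 26 lay at or above the median of the 95. No source used here lists the genes behind the score.

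The first comparison asked how the 95 cells differed from the LZtoDZ cells beside them in the cluster. Genes that fell included 20 of 30 genes of ribosome biogenesis, 13 of 25 of polyamine, one-carbon and nucleotide synthesis, 14 of 15 of chaperonins and mitochondrial import and 7 of 13 of glycolysis. Genes that rose included 7 of 13 of B cell receptor signalling and 4 of 12 B cell identity factors. Of 9004 genes, 219 rose (2.43%) and 599 fell (6.65%) at an adjusted p under 0.05, the threshold used throughout (edgeR's quasi-likelihood test on sums per mouse, mouse as a block, Benjamini-Hochberg). The authors cut the state along a score of expressed genes, so this test is not independent of the split; it says how the sums differ beyond the spread between mice. The 95 cells also had fewer UMIs per cell in each mouse (median 12973 ± 1289, SD, n = 3) than LZtoDZ cells (18853 ± 4316). With all cells thinned to 4000 UMIs the counts were 31 and 124, and 46 of 69 named genes lost their call. Without mouse 3 the counts were 65 and 135, without mouse 2 they were 80 and 271, and without mouse 1 they were 135 and 443.

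Of the 30 ribosome biogenesis genes, 20 fell and none rose, with a median log2 fold change of -0.59 beside -0.03 over all genes tested. These genes encode nucleolar proteins that make, fold and modify ribosomal RNA. Npm1, a nucleolar chaperone, stood at 2263, 2095 and 2144 CPM in the 95 cells, against 3815, 3942 and 3938 CPM in LZtoDZ cells. Its log2 fold change was -0.86 ± 0.04 (SE; adjusted p 8.94e-09, edgeR), and the groups did not overlap, as for 23.0% of all genes. Ncl (nucleolin) stood at 1145, 1153 and 1158 CPM in the 95 cells, against 2056, 1699 and 1779 CPM in LZtoDZ cells (-0.69 ± 0.06; adjusted p 7.85e-06, edgeR). Mrto4, which helps to assemble the large ribosomal subunit, fell by 0.90 on the log2 scale, and Nhp2, of the particles that modify ribosomal RNA, by 0.85. All 4 of these genes kept their call in each of the 16 alternative settings.

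Polyamine, one-carbon and nucleotide synthesis had 13 of 25 genes lower and none higher (median -0.51). Srm led this list with a log2 fold change of -1.31 ± 0.10 (adjusted p 1.4e-06, edgeR). This p, like the others of this comparison, is not independent of the split by activation score. Odc1, ornithine decarboxylase and the first step of polyamine synthesis, stood at 162, 173 and 214 CPM in the 95 cells, against 293, 265 and 256 CPM in LZtoDZ cells; its adjusted p (edgeR) of 0.00367 became 0.0888 without mouse 2. Shmt1 and Mthfd1, enzymes of folate one-carbon metabolism, fell by 1.08 and 0.90, and Gart, of purine synthesis, by 0.75. Chaperonins and mitochondrial import had 14 of 15 tested genes lower (median -0.48). In that list Hspe1 and Hspd1, the mitochondrial chaperonin pair, fell by 0.96 and 0.92. Hspd1 stood at 479, 444 and 459 CPM in the 95 cells, against 876, 838 and 883 CPM in LZtoDZ cells. Its levels did not overlap, as for 23.0% of all genes tested.

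Glycolysis had 7 of 13 genes lower, among them Ldha (lactate dehydrogenase) by 0.58 and Pgam1 (phosphoglycerate mutase) by 0.56. Of the translation factors, 8 of 12 were lower, with Eif4a1 (the initiation helicase) by 0.51 and Eif5a by 0.46. Activation genes had 4 of 15 lower and none higher. Those 4 were Fabp5, a fatty acid binding protein, by 1.65, C1qbp, a mitochondrial matrix protein, by 0.98, Mif, a cytokine, by 0.69 and Ran, a nuclear transport GTPase, by 0.44. Among genes of at least 50 CPM and 10 UMIs, with immunoglobulin and predicted genes left out, the largest fall was that of Slpi, a secreted protease inhibitor. It stood at 103, 166 and 125 CPM in the 95 cells, against 553, 402 and 500 CPM in LZtoDZ cells (-1.86 ± 0.16; adjusted p 4.13e-06, edgeR). The other falls among the 10 largest were Smyd2, a lysine methyltransferase, Ppif, the mitochondrial cyclophilin, Ecsit and Ndufaf2, assembly factors of respiratory complex I, Gcsh, of the glycine cleavage system, Timm44, of mitochondrial import, and Znhit6, of small nucleolar particle assembly, by 1.10 to 1.64. Of these 7, only Ppif kept its call without each mouse in turn; the adjusted p (edgeR) was 0.0663 for Smyd2 without mouse 2, 0.118 for Ecsit, 0.077 for Timm44 and 0.0627 for Znhit6 without mouse 3, 0.0527 and 0.153 for Ndufaf2 without mouse 1 and mouse 3, and 0.0628 to 0.209 for Gcsh without 1 mouse at a time.

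B cell receptor signalling had 7 of 13 genes higher and none lower (median 0.38). Cd79b, a signalling chain of the receptor, stood at 1095, 1008 and 1008 CPM in the 95 cells, against 738, 761 and 745 CPM in LZtoDZ cells. Its log2 fold change was 0.45 ± 0.05 (adjusted p 3.29e-05, edgeR), and its levels did not overlap, as for 23.0% of all genes tested. Syk, the kinase that the receptor activates, rose by 0.65, with an adjusted p (edgeR) of 0.0699 without mouse 2 and 0.0853 without mouse 3. B cell identity factors had 4 of 12 higher. Among them Bach2, a repressor that holds back plasma cell differentiation, stood at 52.9, 82.1 and 45.5 CPM in the 95 cells, against 32.7, 19.5 and 27.3 CPM in LZtoDZ cells (1.20 ± 0.23; adjusted p 0.00365, edgeR, and 0.145 without mouse 2). GC identity had 3 of 10 higher, dark zone genes 5 of 15 and light zone genes 2 of 15, with none lower in any of these lists. The 95 cells pool both zones, and the zones differed here. Summed dark zone genes averaged 2695 CPM in DZ and 1473 CPM in LZ cells of cluster 5, against 1557 CPM in LZtoDZ cells. Summed light zone genes averaged 11444 CPM in these DZ and 22601 CPM in these LZ cells, against 15455 CPM in LZtoDZ cells. Among genes of at least 50 CPM and 10 UMIs, with immunoglobulin and predicted genes left out here and in the largest differences below, the largest rises were Apoe (apolipoprotein E) at 1.47 ± 0.17, Pafah1b3, a lipid hydrolase subunit, at 1.46 ± 0.19, Srpk3, a kinase, at 1.35 ± 0.20 and Bfsp2, an intermediate filament gene, at 1.34 ± 0.16, with adjusted p (edgeR) of 6.86e-05, 0.000166, 0.000559 and 6.86e-05. Apoe differed between mice, at 134, 82.1 and 43.6 CPM in the 95 cells, against 38.1, 30.1 and 19.9 CPM in LZtoDZ cells, and without the mouse block its adjusted p (edgeR) was 0.168.

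The rest of the 10 largest rises were Cd72, a B cell inhibitory receptor, Brwd1, a chromatin reader, Vim (vimentin), Hmces, which shields abasic DNA sites, and Btg1, an antiproliferative gene, at 0.97 to 1.25. Cd72 had an adjusted p (edgeR) of 0.0671 without mouse 2 and 0.111 without mouse 3, and Vim of 0.0565 without mouse 3. Cd72 and Hmces depended on the zone: with DZ cells of cluster 5 alone Cd72 was at -0.91, and with LZ cells alone Hmces was at -0.24, both short of the threshold. Apoe, Srpk3 and Btg1 also lost their call with DZ cells alone, and Pafah1b3 and Brwd1 with LZ cells alone. With cells thinned to 4000 UMIs, only Pafah1b3 of the 10 largest rises kept its call. Several markers gave no call here. Myc was at -0.46 ± 0.23 (adjusted p 0.28, edgeR), Batf at -0.31 ± 0.18 (0.367), Ccnd2 at -0.19 ± 0.24 (0.725), Bcl6 at 0.21 ± 0.21 (0.738), Cxcr4 at 0.39 ± 0.21 (0.33), Mki67 at 0.21 ± 0.10 (0.253) and Irf4 at 0.98 ± 0.47 (0.249). Cd83 was at 0.36 ± 0.18 and Cd86 at 0.45 ± 0.23, and both passed without mouse 1 (adjusted p 0.00834 and 0.0287, edgeR).

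**Figure D2:**
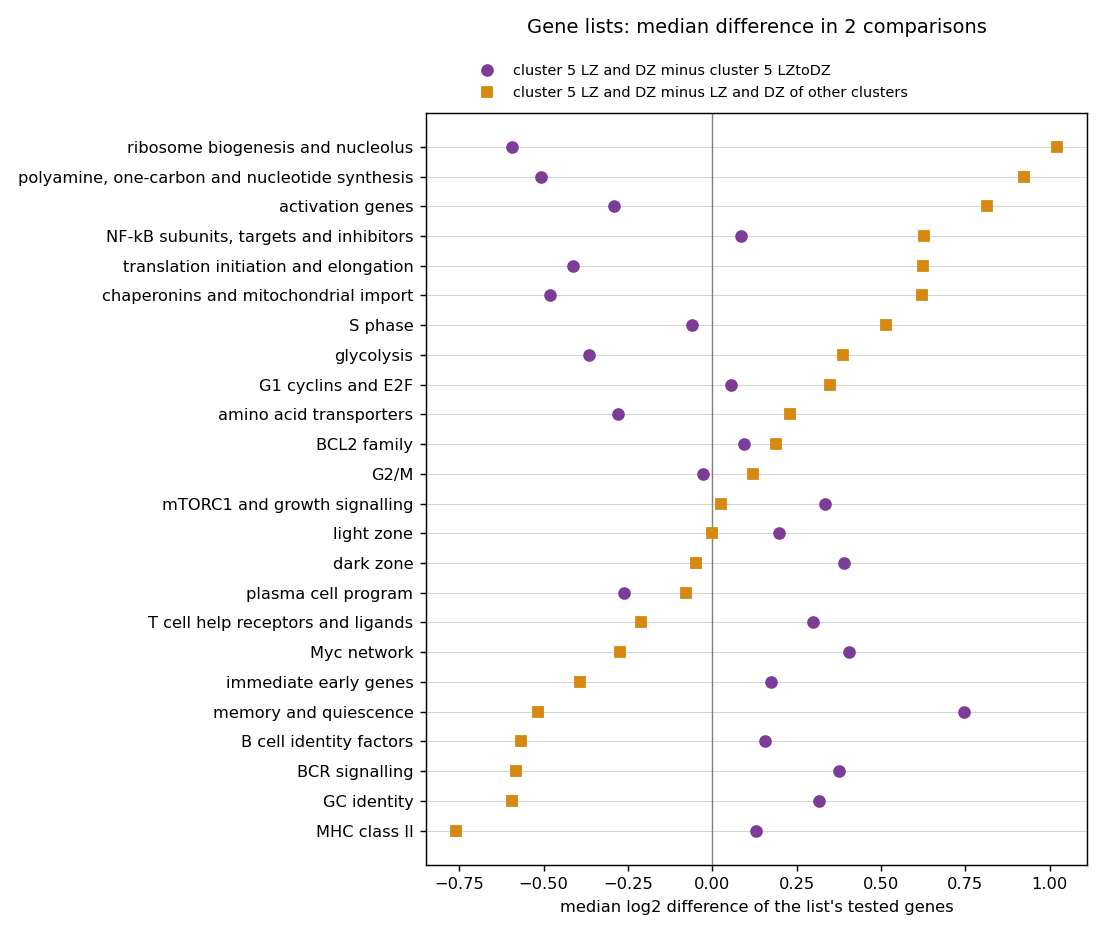
Median log2 difference of the tested genes of 24 lists (horizontal axis) in the LZ and DZ cells of cluster 5 relative to LZtoDZ cells (circles) and to LZ and DZ cells of other clusters (squares). Ribosome biogenesis lies at -0.59 and 1.02, and BCR signalling at 0.38 and -0.58. Both comparisons share the 95 cells.

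The second comparison set the 95 cells against LZ and DZ cells that the authors placed in other clusters, weighting LZ and DZ equally. Batf, Gnl3, Srm and Myc were among the genes that stood higher in the 95 cells, and 8 of 30 ribosome biogenesis and 5 of 15 activation genes were at least 2-fold higher in every mouse. Of the MHC class II, BCR signalling and B cell identity genes, Cd79b alone was lower by that measure, although most stood lower by less than 2-fold. The clusters were made from expression in these same cells, so the values are a description with no test. A gene is counted where it differed at least 2-fold in the same direction in each of 3 mice. Of 9004 genes, 80 were counted higher (0.888%) and 201 lower (2.23%), and 119 of the lower genes had 3 or fewer UMIs in the 95 cells. With 1 mouse left out, so that the rule needed only 2 mice, the counts were 137 to 175 higher and 386 to 410 lower. With other clusters weighted by the share of LZ cells among the 95, they were 65 and 206. Against the 794 other-cluster cells with an activation score at or above the lowest of the 95, the counts were 4 and 15. In that setting 74 named genes moved by at least the SD of their log2 values over the 3 mice, and 31 did not. With S phase cells alone, 51 named genes moved by that measure and 56 did not. Of those 794 cells, 26 reached the median score of the 95, so the groups were not matched in score.

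Batf, a transcription factor of activated lymphocytes, led the higher genes. It stood at 164, 124 and 138 CPM in the 95 cells, against 23.2, 21.5 and 29.2 CPM in other clusters, a log2 fold change of 2.62 ± 0.19 (SE of the fit). This rise lay in the LZ cells. Batf was at 2.77 in LZ cells of cluster 5 against other LZ cells, and at -0.08 in DZ cells against other DZ cells. Gnl3 (nucleostemin, a nucleolar GTPase) stood at 80.8, 122 and 106 CPM in the 95 cells, against 24.7, 27.3 and 23.9 CPM in other clusters. Srm and Myc followed at 1.81 ± 0.10 and 1.78 ± 0.24. The others of the 10 largest were Shisa8, a membrane adaptor gene, Shmt1, Bcat1, a branched-chain amino acid transaminase, Ppa1, the pyrophosphatase, Mettl1, a transfer RNA methyltransferase, and Atad3a, a mitochondrial ATPase, at 1.48 to 1.78. The levels of these 10 did not overlap between the groups, as for 43.2% of all genes tested; they were picked for their difference.

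Of the 30 ribosome biogenesis genes, 8 were counted higher and none lower, and all 30 were higher in each of 3 mice, as were 23.4% of all genes. The median was 1.02 beside -0.02 over all genes. Their summed level was 6959, 6899 and 6822 CPM in the 95 cells, against 11716, 10661 and 10957 CPM in LZtoDZ cells. In other clusters the sum was 3615, 3774 and 3725 CPM in LZ cells and 3181, 3271 and 3275 CPM in DZ cells. The 95 cells thus lay between, with no overlap in any mouse. Polr1b, a core subunit of RNA polymerase I, stood at 13.9, 21.0 and 13.3 CPM in the 95 cells, against 6.07, 4.38 and 6.02 CPM in other clusters. Polyamine, one-carbon and nucleotide synthesis had 2 of 25 genes counted higher, with 23 higher in each mouse and a median of 0.92. Mif stood at 1444, 1380 and 1236 CPM in the 95 cells, against 554, 577 and 537 CPM in other clusters.

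Myc with its partner Max binds the E-box CACGTG, so the promoters of these growth genes were searched for that motif. The search used RefSeq promoters (GRCm38.p6) of 250 bases before and 50 after each gene's start; the motif reads the same on both strands. It occurred in 5 of 25 ribosome biogenesis genes with an entry (20.0%) and in 6 of 23 polyamine, one-carbon and nucleotide genes (26.1%). It also occurred in 2187 of 27025 genes in all (8.09%), 1 of 20 S phase genes (5.00%) and 1 of 12 NF-kB genes (8.33%). The differences between these shares were not tested. A match describes the letters and is not evidence of binding. The 250 bases before the start are shown for 1 gene of each list, picked after their values were seen, both on the plus strand, 5′ to 3′, with the motif in capitals.
Nop2: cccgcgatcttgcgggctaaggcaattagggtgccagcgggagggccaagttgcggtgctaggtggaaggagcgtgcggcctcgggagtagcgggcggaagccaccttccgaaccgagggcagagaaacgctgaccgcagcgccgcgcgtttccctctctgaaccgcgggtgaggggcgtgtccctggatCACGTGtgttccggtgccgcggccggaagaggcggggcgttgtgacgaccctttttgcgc
Atic: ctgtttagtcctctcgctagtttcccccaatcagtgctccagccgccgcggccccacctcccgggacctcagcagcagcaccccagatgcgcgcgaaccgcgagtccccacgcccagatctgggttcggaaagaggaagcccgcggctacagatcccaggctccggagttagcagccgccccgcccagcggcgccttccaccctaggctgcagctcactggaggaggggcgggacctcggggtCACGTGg

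The first is chr6:125131633-125131882, where the motif begins at position -60 from the start, and the second is chr1:71556906-71557155, where it begins at -7. Nop2, a ribosomal RNA methyltransferase, stood at 66.9, 35.8 and 56.9 CPM in the 95 cells, against 84.5, 99.3 and 88.6 CPM in LZtoDZ cells. Its level in other clusters was 25.5 to 29.8 CPM in LZ cells and 18.6 to 20.7 CPM in DZ cells. Atic, of purine synthesis, stood at 184, 206 and 231 CPM in the 95 cells, against 286, 295 and 302 CPM in LZtoDZ cells. In other clusters Atic was at 100.2 to 117 CPM in LZ cells and 79.6 to 87.8 CPM in DZ cells. The order of the groups was the same for both genes, which were picked with these values in view, so it bears on no link between the motif and the level.

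Of 11 MHC class II genes, which present antigen to T cells, none was counted as 2-fold lower, and 10 were lower in each of 3 mice (median -0.76), as were 27.5% of all genes. The summed MHC class II level was 22144, 22211 and 19744 CPM in the 95 cells. In other clusters it was 48157, 45333 and 44003 CPM in LZ cells and 28162, 27689 and 26953 CPM in DZ cells, with no overlap. All 13 BCR signalling genes were lower in each mouse (median -0.58). Cd79b, at -1.09 ± 0.04, was the 1 gene of that list counted. Of 12 B cell identity factors none was counted, and 10 were lower in each mouse (median -0.57).

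Bcl6, the transcriptional repressor that GC B cells require, stood at 39.0, 31.6 and 26.5 CPM in the 95 cells, against 65.1, 58.0 and 61.3 CPM in other clusters. The groups did not overlap, as for 43.2% of all genes tested. The 10 largest among lower genes were led by Gsn (gelsolin, an actin-severing protein) at -2.15 ± 0.15, Mxd4, a repressor that competes with Myc for Max, at -1.97 ± 0.24, and Acp5, a phosphatase, at -1.93 ± 0.30. Mxd4 stood at 13.9, 18.9 and 15.2 CPM in the 95 cells, against 73.5, 56.9 and 64.9 CPM in other clusters. The others were Efnb1, an ephrin, Apoe, Cytip, a regulator of adhesion, Cyp4f18, March1, a ubiquitin ligase that removes MHC class II from the surface, Rnf167 and Il4ra, the IL-4 receptor chain, at -1.57 to -1.92. Apoe stood at 134, 82.1 and 43.6 CPM in the 95 cells, against 508, 291 and 181 CPM in other clusters, and mouse 1 was highest in both.

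Most of the 95 cells carried S or G2M calls in the authors' table. Of the cells of a mouse, 52.7% ± 8.01 were in S and 42.5% ± 7.13 in G2M (SD, n = 3), against 66.3% ± 9.14 and 25.3% ± 9.52 of LZtoDZ cells. G1 held 4.85% ± 4.48 of the 95 cells, against 8.42% ± 3.18 of LZtoDZ cells. Both zones of cluster 5 held S and G2M calls, in different shares: S took 43.6% ± 6.86 of LZ and 71.7% ± 12.1 of DZ cells. LZ cells of cluster 5 were 49.1% ± 6.99 in G2M, against 9.86% ± 2.30 of other LZ cells, and 7.32% ± 6.87 in G1, against 57.2% ± 4.37. The S share of DZ cells compares with 31.0% ± 1.52 of other DZ cells, and 0 of 31 were in G1, against 35.9% ± 1.76. The G2M share of LZ cells, the S share of DZ cells and both G1 shares differed the same way in each of 3 mice (exact sign-flip permutation test, two-sided, p 0.25, the smallest that 3 mice allow). Phase calls follow depth and expression of the same cells, and calls from the S and G2/M lists after thinning gave S to 91.7% and G2M to 8.33% of DZ cells of cluster 5. Those calls put 64.2% of the 95 cells in S, against 66.0% of LZtoDZ cells, higher in 1 of 3 mice. They put 33.8% in G2M, against 24.6%, higher in 2 of 3 mice (exact sign-flip permutation test, two-sided, p 0.5).

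**Figure D3:**
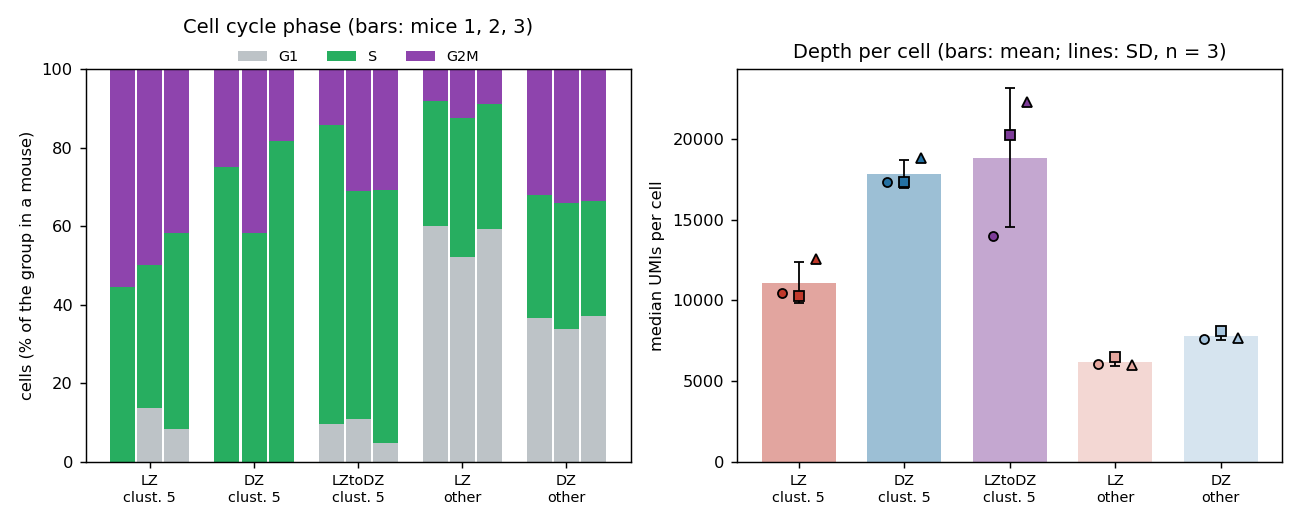
Left, the share of cells in each phase by the authors' calls (vertical axis, percent; 3 bars per group for mice 1, 2 and 3). Right, the median UMIs per cell (vertical axis; symbols are mice, bars the mean, lines the SD, n = 3). Cluster 5 holds few or no G1 cells, and its DZ cells have a mean of 17835 UMIs, against 7794 in DZ cells of other clusters.

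Depth per cell moved with these groups. The median was 11106 ± 1253 UMIs in LZ cells of cluster 5, against 6179 ± 258 in other LZ cells, and 17835 ± 857 in DZ cells of cluster 5, against 7794 ± 258 in other DZ cells (SD, n = 3; higher in 3 of 3 mice, exact permutation p 0.25 for each). Within cluster 5 the median of LZ cells minus that of DZ cells was -6729 ± 411 UMIs. The part of depth in the differences between groups was not tested beyond the thinning to 4000 UMIs.

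Within cluster 5, LZ and DZ cells differed widely. LZ cells stood higher in NF-kB targets, receptors for T cell help and light zone markers. DZ cells stood higher in Cxcr4, the chemokine receptor that holds cells in the dark zone, and cyclin E genes. The NF-kB, T cell help and light zone lists also separated LZ from DZ cells of other clusters. The states were set from expression in these same cells, so these values too are a description. Of 8127 genes, 229 were counted higher in LZ cells (2.82%) and 71 lower (0.874%), and 115 of the higher genes had 3 or fewer UMIs in DZ cells. The DZ sums rest on 8, 12 and 11 cells. With 1 mouse left out, so that the rule needed only 2 mice, the counts were 511 to 539 higher and 197 to 250 lower, and with equal cell numbers 39 and 8.

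Ccnd2, cyclin D2 of early cell cycle entry, had 63 UMIs in the LZ cells of cluster 5 and 0 in its DZ cells. It stood at 62.6, 129 and 58.6 CPM in LZ cells, and the DZ cells were at 0 in each mouse. Pooled over cells, Ccnd2 was at least 15.3-fold higher in LZ than in DZ cells, against a floor of 3 UMIs over the DZ cells (5.32 CPM). It was seen in 21 of 64 LZ cells (32.8%), against 0 of 31 DZ cells, which allows a share of cells with a UMI of up to 9.68% and sets no limit on cells that express the gene. LZtoDZ cells had it in 56 of 159 (35.2%), and in other clusters it was seen in 3.44% of LZ and 0.798% of DZ cells. The DZ cells of cluster 5 were deeper than its LZ cells, with a median of 17612 UMIs per cell, against 10731. Slfn2, a gene of lymphocyte quiescence in mice, was at least 16.3-fold higher in LZ cells, with 67 UMIs there and 0 in DZ cells. Floors and intervals here cover counting error only.

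Of 14 NF-kB genes, 8 were counted higher in LZ than in DZ cells of cluster 5 and none lower, with a median of 1.82 beside 0.04 over all genes. The same list had a median of 0.99 between LZ and DZ cells of other clusters. Nfkbia, the inhibitor that NF-kB itself induces, stood at 356, 691 and 490 CPM in LZ cells, against 14, 13.2 and 82.9 CPM in DZ cells. Relb, an NF-kB subunit, had 47 UMIs in LZ cells and 1 in DZ cells, a ratio of 34.3 (exact binomial 95% interval 5.86 to 1383). Nfkbid, an atypical inhibitor family member, had 78 and 1 UMIs, but most came from mouse 2, with 4.81, 275 and 33.9 CPM in LZ cells. T cell help genes had 7 of 9 counted higher (median 1.79), against a median of 1.10 between LZ and DZ cells of other clusters. Among them Cd40, the receptor for the helper signal CD40L, stood at 154, 142 and 145 CPM in LZ cells, against 7, 22 and 10.4 CPM in DZ cells. Its levels did not overlap, as for 21.3% of all genes tested.

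Light zone genes had 8 of 14 tested counted higher, with a median of 2.08 (1.70 with the gene at 0 set to its bound), against 1.17 between LZ and DZ cells of other clusters. Cd83, a light zone surface protein, stood at 346, 529 and 284 CPM in LZ cells, against 21, 22 and 109 CPM in DZ cells. Cd86, the costimulatory ligand for CD28, stood at 130, 129 and 102 CPM in LZ cells, against 7, 22 and 20.7 CPM in DZ cells. Fcer2a, the low-affinity IgE receptor CD23, followed at 241, 262 and 163 CPM in LZ cells, against 14, 8.78 and 10.4 CPM in DZ cells. Each of these 3 genes marks the light zone, and 21.3% of all genes tested did not overlap between the zones. Batf stood at 284, 233 and 210 CPM in LZ cells, against 0, 13.2 and 25.9 CPM in DZ cells, and Irf4, a factor of plasma cell and GC fate, had 22 and 1 UMIs (ratio 16.1, 95% interval 2.60 to 663). Myc was higher as well, at 164, 137 and 133 CPM in LZ cells, against 49.0, 52.7 and 46.6 CPM in DZ cells (log2 fold change 1.5 ± 0.40).

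Egr1, an immediate early gene, stood at 106, 91.6 and 6.17 CPM in LZ cells, so mouse 3 was far below the others, and had 1 UMI in DZ cells. Tnfsf9, the 4-1BB ligand, and Nfkbiz, another NF-kB-induced regulator, had 68 and 37 UMIs in LZ cells, against 2 UMIs each in DZ cells. Their ratios were 24.8 (95% interval 6.61 to 209) and 13.5 (3.48 to 116). Lists of growth genes had smaller medians between the zones than the NF-kB, T cell help and light zone lists. Ribosome biogenesis had 3 of 30 counted higher in LZ cells (median 0.76), polyamine and nucleotide synthesis none of 25 (0.15) and chaperonins none of 15 (-0.13). Npm1 was at 0.00 ± 0.06 and Odc1 at 0.15 ± 0.19. Other growth genes were higher in LZ cells. Summed ribosome biogenesis genes stood at 7998, 8309 and 7703 CPM in LZ cells, against 5841, 5634 and 5706 CPM in DZ cells. Ncl stood at 1295, 1532 and 1378 CPM in LZ cells, against 993, 790 and 850 CPM in DZ cells. Srm stood at 202, 208 and 207 CPM in LZ cells, against 97.9, 96.6 and 119 CPM in DZ cells.

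The genes higher in DZ cells of cluster 5 were led by Rgcc, a regulator of the cell cycle. It stood at 38.5, 33.3 and 43.2 CPM in LZ cells, against 301, 206 and 327 CPM in DZ cells (-2.81 ± 0.31). Cxcr4 stood at 14.4, 12.5 and 33.9 CPM in LZ cells, against 56.0, 110 and 82.9 CPM in DZ cells (-1.98 ± 0.36). Ccne1 and Ccne2, cyclins of the start of S phase, were at -1.81 ± 0.29 and -1.85 ± 0.36. Ccne2 stood at 19.2, 25.0 and 27.8 CPM in LZ cells, against 83.9, 74.6 and 109 CPM in DZ cells. The rest of the 10 largest were Hmces, Pafah1b3, H1fx, a linker histone, Prcc, Myl4, a myosin light chain, and Pfn2, an actin-binding profilin, at -1.83 to -2.12. Dark zone genes had 2 of 15 counted lower in LZ cells (median -0.89), against a median of -1.26 between LZ and DZ cells of other clusters. Aurkb, a mitotic kinase, ran the other way, at 135, 171 and 139 CPM in LZ cells, against 49.0, 43.9 and 57.0 CPM in DZ cells.

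**Figure D4:**
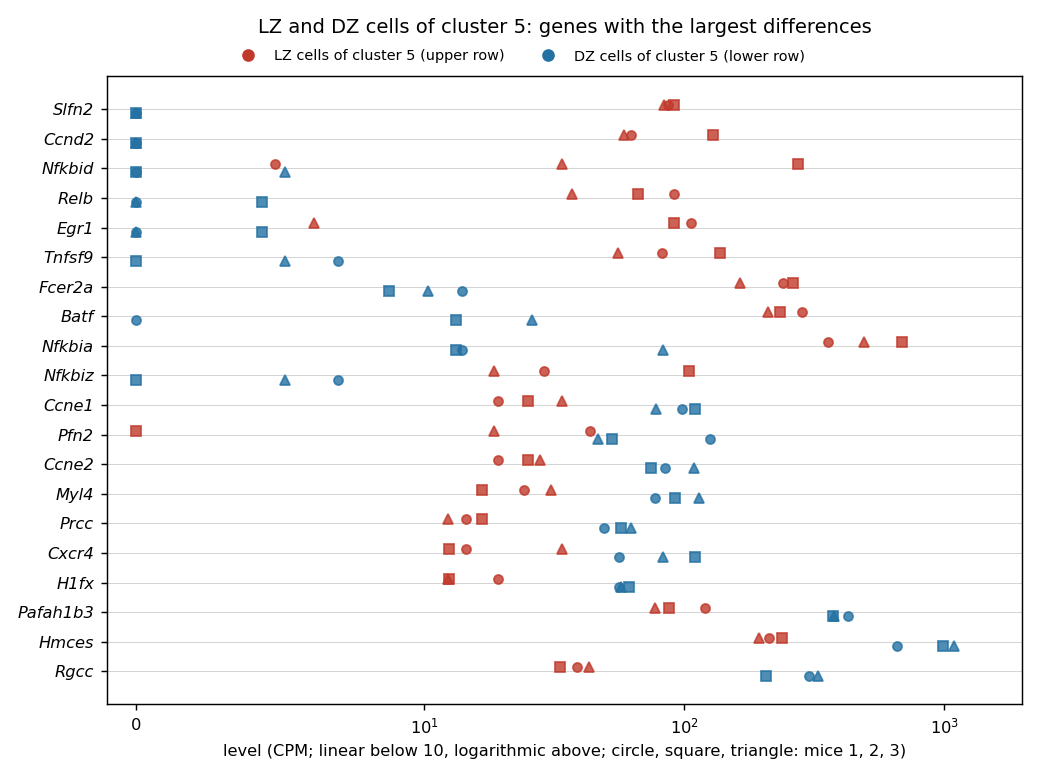
Levels in CPM (horizontal axis, linear below 10 and logarithmic above) of the 10 genes with the largest difference in each direction between LZ cells of cluster 5 (red, upper) and DZ cells of cluster 5 (blue, lower); circles, squares and triangles are mice 1, 2 and 3. Slfn2 and Ccnd2 are at 0 in DZ cells of each mouse. Rgcc, Hmces and Cxcr4 do not overlap between the zones, as for 21.3% of all genes tested.

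The phase difference between the zones accompanied these values, so S phase cells were read alone. Nfkbia stood at 330, 783 and 461 CPM in the 28 S phase LZ cells of cluster 5, against 18.3, 20.1 and 39.2 CPM in its 22 S phase DZ cells. Batf stood at 181, 211 and 259 CPM in the S phase LZ cells, against 0, 6.71 and 19.6 CPM in the S phase DZ cells. Cxcr4 was at 0, 10.0 and 11.3 CPM in S phase LZ cells, against 36.5, 121 and 72.0 CPM in S phase DZ cells. Of 6899 genes tested in S phase cells, 182 were counted higher in LZ cells (2.64%) and 77 lower (1.12%).

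Each zone was also set against its own zone in other clusters, again as a description. For LZ cells, 83 of 8127 genes were counted higher in cluster 5 (1.02%) and 159 lower (1.96%). For DZ cells, 52 were counted higher (0.640%) and 260 lower (3.20%). Ribosome biogenesis was higher in both, with 11 of 30 counted in LZ cells (median 1.18) and none of 30 in DZ cells (median 0.67). Polyamine, one-carbon and nucleotide synthesis had medians of 0.91 in LZ cells and 0.90 in DZ cells, and chaperonins of 0.59 and 0.62. Srm stood at 202, 208 and 207 CPM in LZ cells of cluster 5, against 60, 58.5 and 54.9 CPM in other LZ cells. In DZ cells of cluster 5 it stood at 97.9, 96.6 and 119 CPM, against 36.6, 36.8 and 35.7 CPM in other DZ cells. Myc stood at 49.0, 52.7 and 46.6 CPM in DZ cells of cluster 5, against 19.2, 14.5 and 20.0 CPM in other DZ cells, so Myc and Srm were higher in each mouse in DZ as in LZ cells.

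NF-kB genes did not run together in the zones. Their median was 0.73 in LZ cells and -0.56 in DZ cells, with 0 of 14 and 2 of 14 genes counted lower and none higher. T cell help genes had medians of -0.29 in LZ cells and -1.16 in DZ cells, and light zone genes of -0.23 and -0.86. G2/M genes had medians of 0.75 in LZ cells and -0.65 in DZ cells, and S phase genes of 0.28 and 0.76. MHC class II genes were lower in both, with medians of -0.73 and -1.18 and 5 of 11 counted lower in DZ cells. Activation genes had 6 of 14 counted higher in LZ cells, against 2 higher and 1 lower in DZ cells. The differences between the zones' values were not tested.

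**Figure D5:**
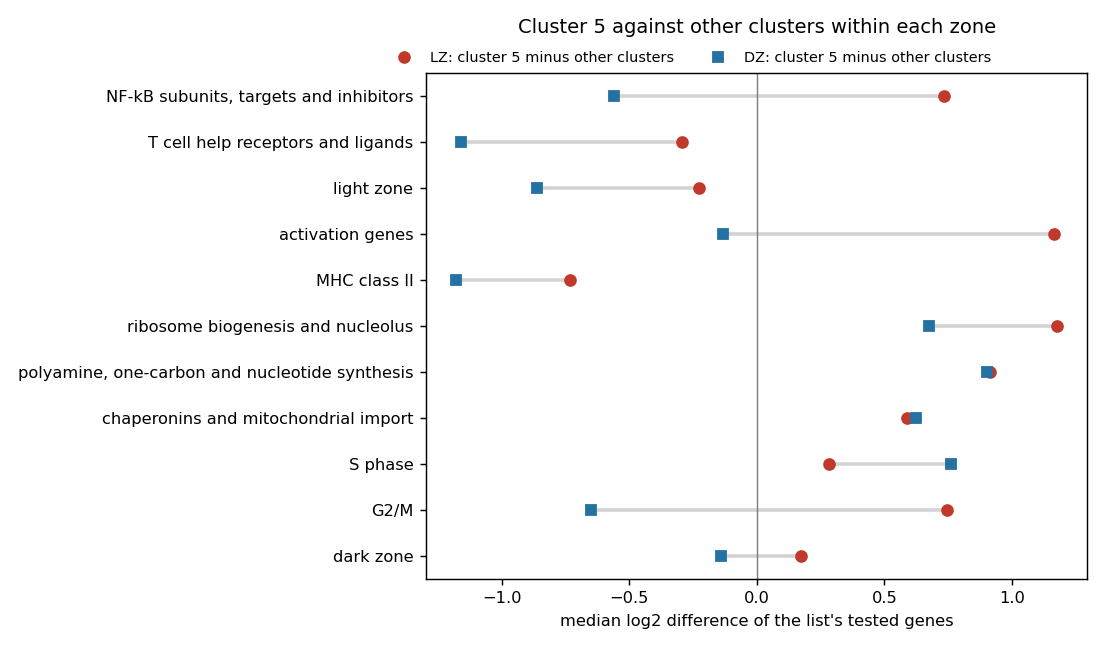
Median log2 difference of the tested genes of 11 lists (horizontal axis) between cluster 5 and other clusters, for LZ cells (circles) and DZ cells (squares). NF-kB genes lie at 0.73 and -0.56 and G2/M genes at 0.75 and -0.65, whereas the polyamine, one-carbon and nucleotide list lies at 0.91 and 0.90.

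The 95 cells made up 1.61% ± 0.154 of the cells of a mouse and 37.2% ± 1.08 of its cluster 5 cells (SD, n = 3). Cluster 5 held 2.99% ± 0.488 of LZ cells and 1.03% ± 0.0959 of DZ cells. LZ cells were 67.5% ± 2.44 of the LZ and DZ cells of cluster 5, against 41.4% ± 3.01 in other clusters (higher in 3 of 3 mice, exact permutation p 0.25). The antibody class by the most abundant heavy-chain transcript was Ighm in 44% ± 9.60 of the 95 cells, against 53.7% ± 3.32 of LZtoDZ cells, a difference of -9.77 points (lower in 3 of 3 mice, exact permutation p 0.25). It was Ighg1 in 33.4% ± 8.10 of the 95 cells, against 29.2% ± 7.80 of LZtoDZ cells, a difference of 4.22 points (exact permutation p 0.25). Lambda light chains predominated in 39.5% ± 6.91 of the 95 cells, against 35.7% ± 9.82 of LZtoDZ cells (exact permutation p 0.75).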

How the data were processed

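The deposited matrix gives unnormalized whole UMI counts of 13886 genes in 6000 cells. Clusters, states, phases, mouse labels and the score columns are the authors', as deposited. The submitters' processing notes name Cell Ranger, Seurat, mm10 and GRCm38; how cells were filtered and doublets treated is not given in the sources used here. All 12 libraries are pooled in the matrix, so the 3 mice are the replicates. Counts were summed per mouse and group (at least 10 cells, except between zones) and fitted together with mouse as a block in edgeR 4.0.16 (R 4.3.3; TMM, filterByExpr, prior count of 2 for log2 CPM per mouse); SE are from the fit. Sums of 1 mouse share an animal: the median correlation of their deviations from the group mean was 0.356 over 18 pairs. Over 36 pairs of different mice it was -0.182. That value is tied to the first, because the deviations of a group cancel over its 3 mice. DESeq2 1.42.0 was an alternative. Other alternatives were scaling, filtering, left-out mice, thinning, phase, cell numbers and cell subsets; 3 were added after seeing the data (each zone alone, and other clusters within the activation score span). Named genes were the 10 with the largest log2 fold change in each direction among those with 50 CPM and 10 UMIs or more in the group where they were higher that moved alike in 3 mice (against LZtoDZ cells, also past the threshold; immunoglobulin and predicted genes left out), 14 fixed genes and up to 4 per list; not all of them are reported here. The members and the 29 lists, with 390 entries of which 11 were absent from the matrix, were chosen with earlier results of these data known. The fit was tested on simulated data.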

Additional observations from a re-analysis of the deposited data

Results flagged for a closer look

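Nfkbia, Tnfaip3 and Traf1, 3 genes of the NF-kB list, differed between cluster 5 and other clusters one way in LZ cells of all 3 mice and the other way in DZ cells of all 3 mice; these differences between the zones were not tested. The mean log2 difference of cluster 5 from other clusters was 0.84 for Nfkbia in LZ cells and -1.71 in DZ cells. In DZ cells of cluster 5 Nfkbia stood at 14, 13.2 and 82.9 CPM, against 81.5, 83.0 and 85.7 CPM in other DZ cells, so mouse 3 was close to its other DZ cells. Tnfaip3, an enzyme that dampens NF-kB signalling, was at 1.23 in LZ cells and -2.42 in DZ cells, where cluster 5 held a single UMI of it. Other DZ cells stood at 5.76, 6.20 and 6.66 CPM of Tnfaip3, close to the floor of 5.32 CPM in DZ cells of cluster 5. Its direction in DZ cells is therefore not settled. Traf1, an adaptor of TNF receptors, was at 1.0 in LZ cells and -0.30 in DZ cells, with mouse 1 at -0.095 in DZ cells.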

How the results depend on the processing

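Against LZtoDZ cells, 219 genes were higher and 599 lower. The numbers higher and lower were 31 and 124 with cells thinned to 4000 UMIs, 112 and 211 in S phase cells alone, 69 and 103 with equal cell numbers, and 140 and 234 when only the 2 groups compared entered the fit. With no filter on low counts 335 were higher, and with LZ cells or DZ cells of cluster 5 alone 396 were lower in each case. Leaving out 1 mouse gave 65 to 135 higher and 135 to 443 lower. Without the replicate block the numbers were 229 and 628, of which 778 were among the 818 genes called with it; of the named genes Apoe, Eif4ebp1 and Ccnb2 lost their call. DESeq2's Wald test called 789 genes, 718 of them shared. Of 69 named genes that were called, 20 kept their call in every alternative run. With DZ cells alone Cd72 (-0.91), Cd83 (-1.82), Cd86 (-1.60), Rel (-0.23), Cd74 (-0.33) and Ptpn6 (-0.19) changed sign; with LZ cells alone Hmces (-0.24), Nuggc (-0.31), Ccnb2 (-0.061) and Neil1 (-0.027) did, and with thinning Slc3a2 was at 0.0029; for these the alternative leaves out cells or UMIs, and the cause was not tested further.

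Against other clusters, the numbers higher and lower (80 and 201) were 48 and 76 in S phase cells, 50 and 35 with equal cell numbers, and 4 and 15 within the span of the activation score, and 496 were lower with no filter; leaving out 1 mouse, which leaves 2 mice for the rule to meet, gave 137 to 175 and 386 to 410. Between the zones (229 and 71) they were 39 and 8 with equal cell numbers, 35 lower with thinning, and 511 to 539 and 197 to 250 without 1 mouse. Without the replicate block these 4 numbers stayed at 80, 201, 229 and 71.

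The share of the 95 cells was 1.79% of LZ, DZ and LZtoDZ cells (1.54% to 1.69% of all cells without 1 mouse), and the median UMIs per cell 12232 to 13406 without 1 mouse. List calls after thinning put 64.2% of the 95 cells in S and 33.8% in G2M, 51.0% of LZ cells in S, and 91.7% and 8.33% of DZ cells in S and G2M. Depth limits the DZ sums most, where a gene at 0 could still reach 5.32 CPM. Doublets could not be checked.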

Other observations

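Of 13 DZ cells of cluster 5 with a Myc UMI, 12 also had Cxcr4, against 14 of 18 DZ cells without one, and 0 had Ccnd2. Of 32 LZ cells of cluster 5 with Myc, 4 had Cxcr4 and 16 had Ccnd2, and of 107 such LZtoDZ cells 42 had Cxcr4 and 46 had Ccnd2. DZ cells are deeper than LZ cells, so these counts compare cells of unequal depth, and no test over cells was made.

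Mcm5, of the replicative helicase, which was named after its values were seen, stood at 298, 216 and 318 CPM in LZ cells of cluster 5, against 525, 439 and 409 CPM in its DZ cells. Tfap4, a transcription factor known to follow Myc in GC B cells, averaged 19.1 ± 2.05 CPM in the 95 cells, against 32.2 ± 1.75 CPM in LZtoDZ cells (SD, n = 3; adjusted p 0.109, edgeR, not past the threshold).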
